A study of Mus musculus with 12 samples.

Results

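Collagens are extracellular matrix proteins in which chains wind around each other into a stiff helix, and the mouse genome holds a large family of genes for these chains. The collagen genes were taken as every row of the deposited tables whose gene name is Col, a number, the letter a and a number. This gave 43 genes of the 39221 named genes in the whole series: 11 fibrillar, 6 basement membrane and 26 other collagens. The tables hold FPKM, fragments counted per kilobase of transcript and scaled for sequencing depth, which is a level per length, and the ratio of cocaine to saline is given here only where the authors' program marked the locus as tested (status OK). That was so for 23 collagen genes at 2 h, 25 at 24 h and 24 at 7 d; 26 genes were tested at any time point and 22 at all 3.

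The tissue was the prefrontal cortex of C57BL/6 male mice aged 10 weeks. The mice received 14 daily injections of saline or of cocaine at 20 mg/kg per day and their tissue was taken 2 h, 24 h or 7 d later, which gives 6 groups. A library pooled 5 mice and a group had 2 libraries, so that 60 mice stand behind 12 libraries. No allele or transgene is named for any group, and the injected agent is the only treatment difference named between saline and cocaine mice of the same time point. The deposited FPKM is 1 pooled value per group, written below as the authors' pooled value. In each pair of values saline comes before cocaine, and pairs without a time are in the order 2 h, 24 h and 7 d. No value per library is used here, so there is no spread between libraries, no fragment count and no test behind any difference below, and whether a difference exceeds the replicate error cannot be told from these values. Differences are described as ratios of cocaine to saline on the log2 scale, and a ratio of at least 1.3-fold in either direction (0.38 on the log2 scale) is counted and read against the share of all tested loci with finite ratios that pass it. Each time point was normalised on its own, so that levels set across time points are a description only.

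Fibrillar collagens (types I, II, III, V, XI and related chains) build the cables of connective tissue. In the brain such fibrils lie in the meninges and around larger vessels, and the parenchyma holds few of them. Type IV collagens form the sheet of the basement membrane, which in the brain surrounds the vessels and lies under the pia. The other collagens include beaded filaments of type VI, collagens that attach to fibrils (FACIT: types IX, XII, XVI, XIX and XXII), multiplexins of the vessel wall (types XV and XVIII), the short-chain network collagen VIII and transmembrane collagens (types XIII, XXIII and XXV), some of which neurons make.

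The promoters of Col1a2 and Col3a1 are shown because these genes are the fibrillar pair whose ratios differed most from each other at 2 h and that were both higher in cocaine at 7 d. The runs are the 250 bases before the annotated start in RefSeq on GRCm38.p6, 5′ to 3′ on the plus strand, with capitals marking the motifs named after them.
Col1a2 (chr6:4505368-4505617): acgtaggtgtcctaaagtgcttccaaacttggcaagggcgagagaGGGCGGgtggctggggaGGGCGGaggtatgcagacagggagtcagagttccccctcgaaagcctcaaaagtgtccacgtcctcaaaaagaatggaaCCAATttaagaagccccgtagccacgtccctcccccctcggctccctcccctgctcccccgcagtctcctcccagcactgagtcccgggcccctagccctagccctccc
Col3a1 (chr1:45311288-45311537): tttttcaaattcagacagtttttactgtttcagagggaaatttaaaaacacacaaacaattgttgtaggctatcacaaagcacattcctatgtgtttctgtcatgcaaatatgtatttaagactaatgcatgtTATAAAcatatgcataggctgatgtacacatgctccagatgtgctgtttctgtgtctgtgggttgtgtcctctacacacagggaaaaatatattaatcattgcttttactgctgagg
The Col1a2 run is 62.0% G and C, with a CCAAT motif 109 bases before the start and GGGCGG 205 and 188 bases before it. The Col3a1 run is 35.2% G and C, with TATAAA 117 bases before the start and neither of the other motifs on either strand. Searched on both strands, CCAAT (on the other strand ATTGG) stood in 33.8% of 32851 RefSeq windows of this length and in 13 of 38 collagen windows (34.2%). GGGCGG (on the other strand CCGCCC) stood in 32.7% of all windows and in 22 of 38 collagen windows (57.9%), and TATAAA (on the other strand TTTATA) in 12.4% and in 5 of 38 (13.2%). Of the 43 genes 34 had a window, and Col1a1 had none. A match describes letters in the window and is not evidence that a factor binds there.

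The type IV genes lie in head-to-head pairs. The annotated starts of Col4a1 (chromosome 8, minus strand, 11312826) and Col4a2 (plus strand, 11312805) are 21 bases apart, and those of Col4a6 and Col4a5 on chromosome X are 1343 bases apart (141474076 and 141475419, GRCm38). The deposited tables give Col4a1 and Col4a2 the same locus bounds, 11187755 to 11449287. The library kit does not mark strand, so reads from the stretch where the annotated transcripts of Col4a1 and Col4a2 overlap cannot be assigned to a strand.

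Collagen messages were scarce in this tissue. The tested collagen genes had mean FPKM values between 0.369 and 10.5. The 17 genes never tested (5 fibrillar, 3 basement membrane and 9 other) had pooled values between 0.00508 and 0.470, the highest being Col8a1, a chain of the network collagen made by endothelium and smooth muscle. Among them were Col2a1, the main collagen of cartilage, Col10a1 of growth plate cartilage, Col7a1 of the anchoring fibrils of skin, and Col17a1 of the hemidesmosome. The type IV genes among them were Col4a6 and also Col4a3 and Col4a4, chains of specialised basement membranes such as that of the kidney glomerulus. Also never tested were Col5a3, Col11a1, Col24a1 and Col27a1 of the fibrillar class and Col6a5, Col6a6, Col9a1, Col14a1 and Col28a1 of the others. The highest collagen was Col25a1, a transmembrane collagen made by neurons whose shed form is found in amyloid plaques. Its pooled values were 11.0 in saline and 9.94 in cocaine at 2 h, 9.79 versus 10.3 at 24 h, and 9.64 versus 9.07 at 7 d, where the locus is marked as failed and gives no ratio. The 6 groups lay close together for this gene, with saline values within 1.14-fold of each other.

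**Figure D1:**
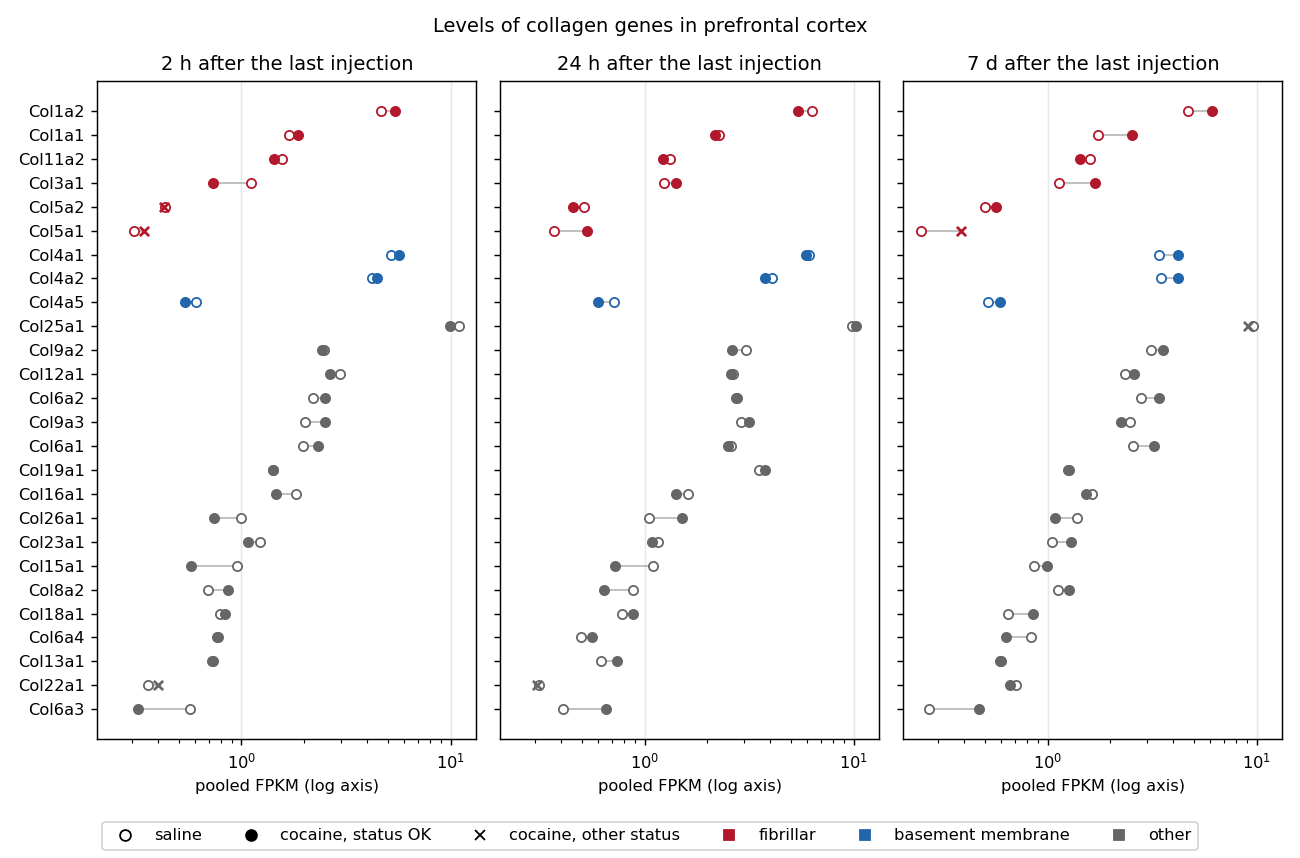
Pooled FPKM (log axis) of each tested collagen gene in the saline and cocaine groups at 2 h, 24 h and 7 d, grouped into fibrillar, basement membrane and other collagens; open circles are saline, filled circles cocaine at a tested locus and crosses cocaine at a locus not tested, each the authors' pooled value of 1 group with no error bar. Col25a1 has the highest values, between 9.07 and 11.0, Col1a2, Col4a1 and Col4a2 lie between 3.40 and 6.30, and Col19a1 is higher in both groups at 24 h than at the other time points.

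Counts past 1.3-fold were small at every time point. At 2 h, 0 of 23 tested collagen genes were higher in cocaine past 1.3-fold, where 7.36% of 15852 tested loci were, and 4 were lower (17.4%, against 8.03% of loci). At 24 h, 3 of 25 were higher (12.0%, against 5.90% of 16962 loci) and 2 lower (8.00%, against 5.81%). At 7 d, 5 of 24 were higher (20.8%, against 7.60% of 16547 loci) and 1 lower (4.17%, against 8.16%). Scarce messages pass a fold more readily, and among loci in the FPKM range of the tested collagens the shares were 10.0% higher and 12.0% lower at 2 h, 8.12% higher and 8.19% lower at 24 h, and 10.2% higher and 9.81% lower at 7 d. Each collagen count rests on 5 genes or fewer and is read against shares of this size. By sign alone, 12 of 23, 11 of 25 and 16 of 24 collagen genes were higher in cocaine at 2 h, 24 h and 7 d, against 54.3%, 52.0% and 48.9% of all loci tested.

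By class, the medians separated at 7 d before any correction for transcript length. The 5 tested fibrillar collagens had a median log2 ratio of 0.39 at 7 d, the 3 basement membrane collagens 0.27 and the 16 others 0.16, where all tested loci had -0.01. After the length correction described further below, the medians were 0.31, 0.14 and 0.13, the last over the 15 others with a length. The basement membrane and other classes then lay close together. At 24 h the medians were -0.09 over 6 fibrillar, -0.10 over 3 basement membrane and 0.04 over 16 other collagens, with 0.01 over all loci. At 2 h they were 0.00, 0.07 and -0.01 over 4, 3 and 16 genes, with 0.02 over all loci. The whole collagen family had medians of 0.01, -0.05 and 0.19 in order of time. With 3 to 6 genes in the smaller classes and no spread between libraries, the order of the classes is a description of these pooled values.

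**Figure D2:**
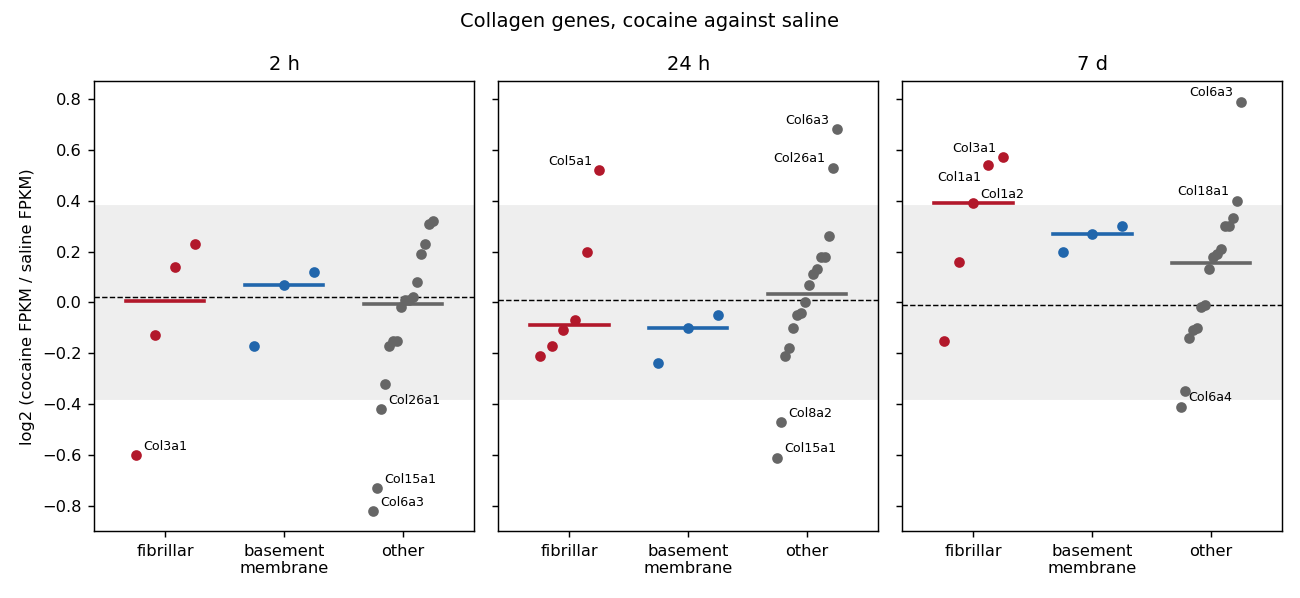
Log2 ratio of cocaine to saline FPKM of each tested collagen gene at 2 h, 24 h and 7 d, by class; each point is 1 gene, the coloured bars are class medians, the dashed line is the median of all tested loci, and the grey band spans ratios short of 1.3-fold (0.38). At 7 d the fibrillar median lies at 0.39 with Col1a1, Col1a2 and Col3a1 above the band, and the basement membrane collagens all lie between 0.20 and 0.30. The ratios shown are not corrected for transcript length.

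Col1a1 and Col1a2 encode the chains of type I collagen, the main fibril of connective tissue. Col1a1 (chromosome 11, 94936224 to 94953042) had pooled values of 1.69 in saline and 1.86 in cocaine at 2 h, 2.27 versus 2.17 at 24 h, and 1.75 versus 2.54 at 7 d. The cocaine group of 7 d was the highest of the 6 groups for this gene, with a log2 ratio of 0.54 (1.45-fold), and 8.76% of tested loci had a larger change there. Col1a2 (chromosome 6, 4504814 to 4541543) had 4.63 and 5.45 at 2 h, 6.30 versus 5.43 at 24 h, and 4.69 versus 6.14 at 7 d (log2 ratio 0.39, 1.31-fold). Its highest value was the saline group of 24 h, above the cocaine group of 7 d, and both chains had a log2 ratio above 0 at 2 h and 7 d and below 0 at 24 h.

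Col3a1 (chromosome 1, 45311538 to 45349706) encodes type III collagen, which joins type I in the fibrils of vessels and soft tissue. Its pooled values were 1.11 in saline and 0.730 in cocaine at 2 h, 1.24 versus 1.42 at 24 h, and 1.13 versus 1.68 at 7 d. The saline values stayed within 1.12-fold of each other, and the cocaine values ran from the lowest of the 6 at 2 h to the highest at 7 d. The log2 ratios were -0.60, 0.20 and 0.57. At 2 h and at 24 h the sign was opposite to that of Col1a1 and Col1a2, and at 7 d all 3 of these genes were higher in cocaine.

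Of the 3 minor fibrillar collagens tested, only Col5a1 passed 1.3-fold, at 24 h. Col5a1, whose type V chains set the diameter of type I fibrils, was tested at 24 h only, with 0.369 in saline and 0.528 in cocaine (log2 ratio 0.52); its untested values were 0.306 and 0.343 at 2 h and 0.247 versus 0.387 at 7 d. Col5a2, its partner chain, had log2 ratios of -0.17 at 24 h and 0.16 at 7 d at levels between 0.425 and 0.566 in the 6 groups. Col11a2, a chain of the type XI collagen of cartilage, had 1.57 and 1.43 at 2 h, 1.32 versus 1.22 at 24 h, and 1.59 versus 1.43 at 7 d. It was the fibrillar gene that was lower in cocaine at all 3 time points, each time by a small amount (log2 ratios -0.13, -0.11 and -0.15).

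Col4a1 and Col4a2 encode the chains of the basement membrane collagen found around all vessels. Col4a1 had pooled values of 5.21 in saline and 5.68 in cocaine at 2 h, 6.12 versus 5.90 at 24 h, and 3.40 versus 4.20 at 7 d. Col4a2 had 4.23 and 4.43, 4.06 and 3.79, and 3.48 and 4.19 at the same times. At 7 d the ratios of the pair were alike (log2 0.30 and 0.27), and for each gene the saline group of 7 d was the lowest of the 6. The saline values of Col4a1 spanned 1.80-fold across the time points, more than its 1.24-fold ratio of cocaine to saline at 7 d. Col4a5 (chromosome X, 141475385 to 141689234), a chain of the less abundant type IV networks, had 0.603 and 0.537, 0.712 and 0.602, and 0.518 and 0.594, with log2 ratios of -0.17, -0.24 and 0.20. No basement membrane collagen passed 1.3-fold at any time point; all 3 tested genes were lower in cocaine at 24 h and all 3 higher at 7 d.

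Type VI collagen, the beaded filament around cells, is assembled from the products of Col6a1, Col6a2 and one of the longer chains, of which Col6a3 is the usual one. Col6a1 had pooled values of 1.97 in saline and 2.31 in cocaine at 2 h, 2.60 versus 2.50 at 24 h, and 2.56 versus 3.22 at 7 d. Col6a2 had 2.20 and 2.50, 2.75 and 2.76, and 2.79 and 3.43. The pair was alike in that its log2 ratios were 0.23 and 0.19 at 2 h, -0.05 versus 0.00 at 24 h, and 0.33 versus 0.30 at 7 d, all short of 1.3-fold.

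Col6a3 (chromosome 1, 90765923 to 90843971) did not share that pattern, as it passed 1.3-fold at each time point and was lower in cocaine at 2 h. It had pooled values of 0.565 in saline and 0.320 in cocaine at 2 h, 0.408 versus 0.653 at 24 h, and 0.271 versus 0.468 at 7 d. The log2 ratios were -0.82, 0.68 and 0.79, and 4.54%, 4.45% and 5.03% of tested loci had a larger change. Its saline values themselves spanned 2.08-fold, so that the cocaine value at 7 d lay inside the range of the saline groups. Col6a4, another long chain, had 0.766 and 0.775, 0.496 and 0.561, and 0.838 and 0.631, and was the collagen that was lower in cocaine past 1.3-fold at 7 d (log2 ratio -0.41).

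The multiplexins sit in vessel basement membranes, and the end fragment of type XVIII is the angiogenesis inhibitor endostatin. Col15a1 (chromosome 4, 47197487 to 47313167) had pooled values of 0.950 in saline and 0.573 in cocaine at 2 h, 1.10 versus 0.722 at 24 h, and 0.863 versus 0.999 at 7 d. Like Col6a3 it passed 1.3-fold in the same direction at 2 time points, with log2 ratios of -0.73 at 2 h and -0.61 at 24 h, both cocaine values lying below all 3 saline values. Col18a1 had 0.789 and 0.832, 0.780 and 0.882, and 0.646 and 0.854, with a log2 ratio of 0.40 at 7 d. Its cocaine value lay above all 3 saline values at each time point.

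Among the fibril-attached collagens the median log2 ratio at 7 d was -0.05 over 6 genes, below those of the fibrillar genes and the beaded filament genes (0.32 over 4). None of them passed 1.3-fold at any time point. Col9a2 had pooled values of 2.48 in saline and 2.44 in cocaine at 2 h, 3.05 versus 2.63 at 24 h, and 3.13 versus 3.56 at 7 d. Col9a3, which shares a molecule with Col9a2, had 2.01 and 2.50, 2.89 and 3.17, and 2.47 and 2.24. The log2 ratios of these partner chains differed in sign at each time point (-0.02 and 0.31, -0.21 and 0.13, 0.19 and -0.14). Col12a1, a fibril-attached collagen of tendon and ligament, had 2.95 and 2.65, 2.65 and 2.58, and 2.36 and 2.58. Col16a1 had 1.83 and 1.46, 1.61 and 1.42, and 1.63 and 1.52, and its cocaine values lay below all 3 saline values at each time point (log2 ratios -0.32, -0.18 and -0.11). Col22a1, a collagen of tissue junctions, was tested at 7 d only, with 0.709 in saline and 0.661 in cocaine.

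Col19a1 stood apart by time point, with log2 ratios of cocaine to saline of only 0.01, 0.11 and -0.01. This fibril-attached collagen is made by a subset of cortical interneurons, whose synapses it helps to form. Its pooled values were 1.41 in saline and 1.42 in cocaine at 2 h, 3.51 versus 3.79 at 24 h, and 1.27 versus 1.26 at 7 d. Saline at 24 h was 2.49-fold above the higher of the other saline groups, and cocaine at 24 h 2.66-fold above the higher of the other cocaine groups. Of 13674 genes tested at all time points, 57 (0.417%) had saline at 24 h at least 2-fold above both other saline groups, and 27 (0.197%) had this in both treatments. The time point and the separate processing of each table cannot be told apart here.

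The remaining tested collagens varied without a shared direction. Col8a2, a network collagen, had pooled values of 0.693 in saline and 0.863 in cocaine at 2 h, 0.884 versus 0.639 at 24 h (log2 ratio -0.47), and 1.12 versus 1.27 at 7 d. The transmembrane Col23a1 had 1.22 and 1.08, 1.16 and 1.09, and 1.05 and 1.3, and the transmembrane Col13a1, a collagen of the neuromuscular junction, stayed between 0.594 and 0.740. Col26a1, which is not placed in a structural class here, had 0.990 and 0.738 at 2 h (log2 ratio -0.42), 1.05 versus 1.51 at 24 h (0.53), and 1.39 versus 1.09 at 7 d (-0.35). The sign for Col26a1 thus alternated between time points.

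Cocaine values were also set against the saline values of all 3 time points, for the 22 collagen genes and 13674 genes in all that were tested throughout, although the 3 tables were normalised separately. At 7 d, 8 of 22 collagens (36.4%, against 14.5% of genes) lay above all 3 saline values: Col1a1, Col3a1, Col6a1, Col6a2, Col8a2, Col9a2, Col18a1 and Col23a1. Below all 3 were 3 (13.6%, against 24.9%). Neither the counts nor the shares are corrected for transcript length, with which the 7 d ratios ran as described below. Shares among genes of like length or FPKM were not computed. At 2 h, 3 collagens lay above (13.6%, against 30.0%) and 5 below (22.7%, against 25.5%), and at 24 h 7 above (31.8%, against 28.4%) and 4 below (18.2%, against 18.7%). The saline groups differed among themselves as well. The highest saline value of a collagen gene was a median of 1.3-fold above its lowest, with a range of 1.12 to 2.77, and 11 of 22 collagens (50.0%) passed 1.3-fold between saline groups, against a median of 1.17 and 23.9% over all genes. For 7 of the 22 collagens the largest ratio of cocaine to saline exceeded the ratio between the highest and lowest saline values, as it did for 6214 of the 13674 genes.

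Ratios at 7 d ran with transcript length across the whole table. In 20 groups by length of non-collagen loci with a mean FPKM of at least 1, the median log2 ratio at 7 d ran from -0.233 in the shortest group to 0.145 in the longest, against 0.006 to 0.083 at 2 h and -0.025 to 0.036 at 24 h. Collagen transcripts are long, with a median of 5658 nt over those tested at 7 d against 3025 nt over all genes. With the median of its length group subtracted, the fibrillar median at 7 d was 0.31 in place of 0.39 and the basement membrane median 0.14 in place of 0.27. The median of the others was 0.13 over the 15 genes with a length, which leaves out Col26a1, and is not set against the 0.16 over 16 genes. Past 1.3-fold after this step were 3 collagens higher (Col1a1 at 0.45, Col3a1 at 0.48 and Col6a3 at 0.64) and 1 lower (Col6a4 at -0.54), while Col1a2 and Col18a1 stood at 0.31 each. For Col4a1 and Col4a2 the value was 0.18 and 0.14.

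**Figure D3:**
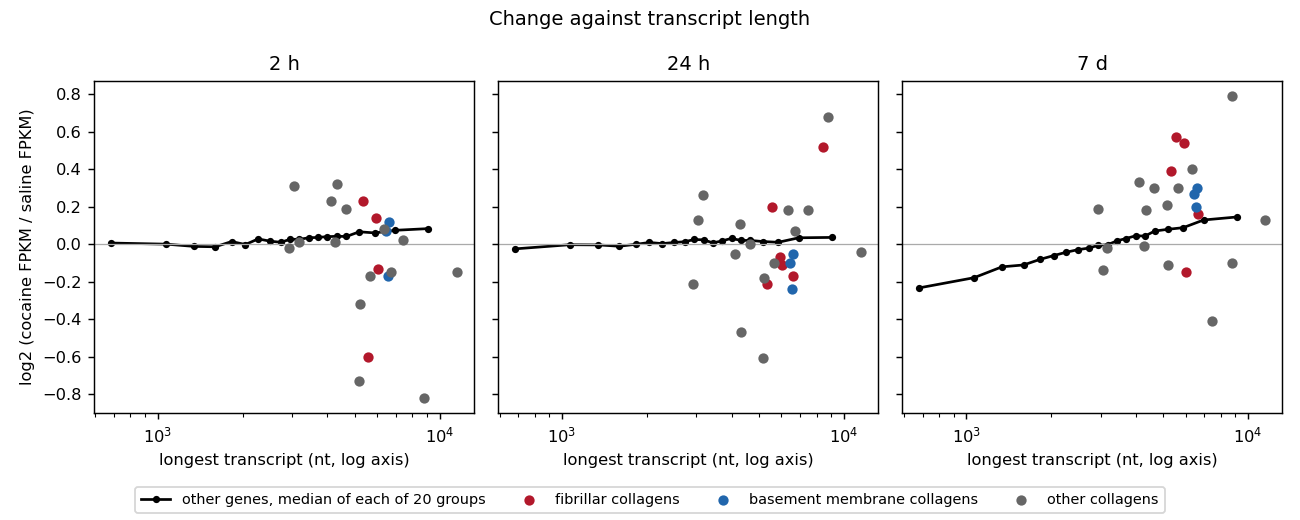
Median log2 ratio of cocaine to saline in 20 groups of non-collagen loci ordered by transcript length (log axis, nt) at 2 h, 24 h and 7 d, joined by a line, with the tested collagen genes as points coloured by class. The 7 d line climbs from -0.233 to 0.145, and Col1a1, Col3a1 and Col6a3 lie furthest above it while Col6a4 lies below it.

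Genes that fold, cross-link and cut collagens were read beside the chains themselves. Of 34 genes for collagen processing, 23, 23 and 22 were tested at 2 h, 24 h and 7 d. The counts of this and the next lists are to be read against the shares of all tested loci past 1.3-fold, 7.36% higher and 8.03% lower at 2 h, 5.90% higher and 5.81% lower at 24 h, and 7.60% higher and 8.16% lower at 7 d. At 2 h 4 were higher and 0 lower, with a median log2 ratio of 0.18. They were P4ha1, a subunit of the enzyme that hydroxylates proline (9.54 in saline and 14.5 in cocaine), Serpinh1, the collagen chaperone HSP47 (8.21 and 11.3), and the scarcer Plod2 and Adamts2. At 24 h 1 was higher and 1 lower, and at 7 d 2 were higher and 0 lower, with medians of 0.08 and 0.18. The genes higher at 7 d were Fkbp10, a chaperone of procollagen (2.37 and 3.17), and Adamts2, which removes the amino end of procollagen (0.663 and 1.05). The most abundant members, Ppib and P4hb, which serve many secreted proteins, were within 1.08-fold of saline at each time point (Ppib 48.2 and 45.8, P4hb 37.1 and 36.7 at 7 d).

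Of 16 basement membrane genes other than collagens 14 were tested. None passed 1.3-fold at 2 h (median 0.02), and at 24 h 1 was higher and 2 lower (median 0.01). At 7 d 3 were higher and 0 lower, 12 of 14 had a ratio above 1 (48.9% of all loci did), and the median was 0.27, equal to that of the type IV genes. Both medians are before the length correction, which brought the type IV median to 0.14. That correction was not run for this list or for the other matrix and marker lists. The 3 genes were Lama2 (1.51 in saline and 2.03 in cocaine) and Lamb2 (4.15 and 5.55), chains of laminin, and Pxdn, the enzyme that cross-links type IV collagen (2.83 and 3.72). Pxdn was also the gene higher at 24 h (3.30 and 4.83), and Lama5, another laminin chain, was lower then (1.60 and 0.844). Agrn, the proteoglycan agrin and the highest member, had 17.4 and 19.2 at 7 d.

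Of 16 genes for matrix proteins that bind collagen 15 were tested. At 2 h 3 were higher (Bgn, Ogn and Prelp, small leucine-rich proteoglycans of connective tissue) and 0 lower, at 24 h 0 higher and 1 lower (Lum), and at 7 d 5 higher and 0 lower, with medians of 0.19, -0.10 and 0.20. The 7 d genes included Prelp (4.36 in saline and 5.81 in cocaine), Thbs2 (1.21 and 1.66) and the fibulins Fbln1 (4.05 and 5.84) and Fbln2 (0.894 and 1.38). The highest members were Sparcl1 and Sparc, which in brain are made by astrocytes, vessels and microglia. Of 12 collagen receptor genes 7 were tested, of which 1 was higher at 2 h (Lair1), none passed at 24 h, and 2 were higher at 7 d: Ddr2, a receptor kinase for fibrillar collagen (1.70 and 2.21), and Gpr56, a receptor of type III collagen in the developing cortex (12.5 and 16.7). Itgb1, the shared integrin chain and the highest member, had 15.3 and 16.9 at 7 d. Of 12 genes for collagen breakdown and its inhibitors 9, 10 and 10 were tested, with 1 higher at 2 h (Timp1, 0.613 and 1.11), and Mmp9 lower at 24 h and 7 d. The inhibitors Timp2 and Timp3, the highest of that list, had 57.8 and 57.6 and 17.3 and 21.0 at 7 d.

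Markers of the cells that make collagens in and around the cortex had medians below 0 at 24 h and above 0 at 7 d, as the fibrillar and basement membrane collagens did; the other collagens had a median of 0.04 at 24 h. In bulk tissue fewer cells of a type and less RNA per cell cannot be told apart. The counts by sign here and for the astrocyte markers below are to be read against all tested loci. Of those, 54.3%, 52.0% and 48.9% were higher in cocaine at 2 h, 24 h and 7 d. The marker ratios are not corrected for transcript length. The meningeal fibroblast markers Dcn, Lum, Ogn, Fmod and Aspn are also in the list of matrix proteins that bind collagen. A likeness between those lists therefore rests in part on the same genes. At 7 d, 10 of 12 meningeal fibroblast markers were higher in cocaine, with a summed level of 156 FPKM in saline and 181 in cocaine and a median log2 ratio of 0.28. Their sums were 158 and 179 at 2 h (11 of 12 higher, median 0.12) and 186 versus 165 at 24 h (1 of 12 higher, median -0.22). Endothelial markers had sums of 143 and 162, 162 and 160, and 147 and 156 in order of time, with 8 of 9, 2 of 9 and 8 of 9 higher. Mural cell markers had 110 and 113, 115 and 110, and 98.8 and 108, with 7, 3 and 8 of 10 higher, and Acta2 and Myh11 of smooth muscle passed 1.3-fold at 7 d. No marker of these 3 lists stood at 0 in any group. The part of these cells in the collagen ratios was not tested.

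Astrocyte markers, which belong to cells that make little fibrillar collagen, behaved likewise: 6 of 6, 0 of 6 and 6 of 6 were higher in cocaine at 2 h, 24 h and 7 d, with medians of 0.16, -0.18 and 0.21. Cortical neuron markers had medians of 0.03, 0.03 and 0.06 and sums between 2464 and 2587 FPKM in the 6 groups, so that neuronal messages were abundant in every group. Of these markers Neurod6 passed 1.3-fold, being lower at 7 d (37.2 and 28.1). Oligodendrocyte markers had medians of -0.08, -0.14 and 0.03. Choroid plexus markers were scarce, with sums of 2.87 in saline and 1.60 in cocaine at 2 h, 2.92 versus 2.16 at 24 h, and 1.54 versus 7.60 at 7 d, and Otx2 or Kcne2 stood at 0 in some groups. Ttr, the carrier of thyroid hormone that choroid plexus secretes, had 1.90 and 0.461, 1.80 and 1.10, and 0.284 and 6.54. Folr1, a folate receptor of the same list, went the other way at 7 d, with 0.668 and 0.290, and Kl was higher (0.376 and 0.531). The part of choroid plexus RNA in the collagen values was not tested.

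**Figure D4:**
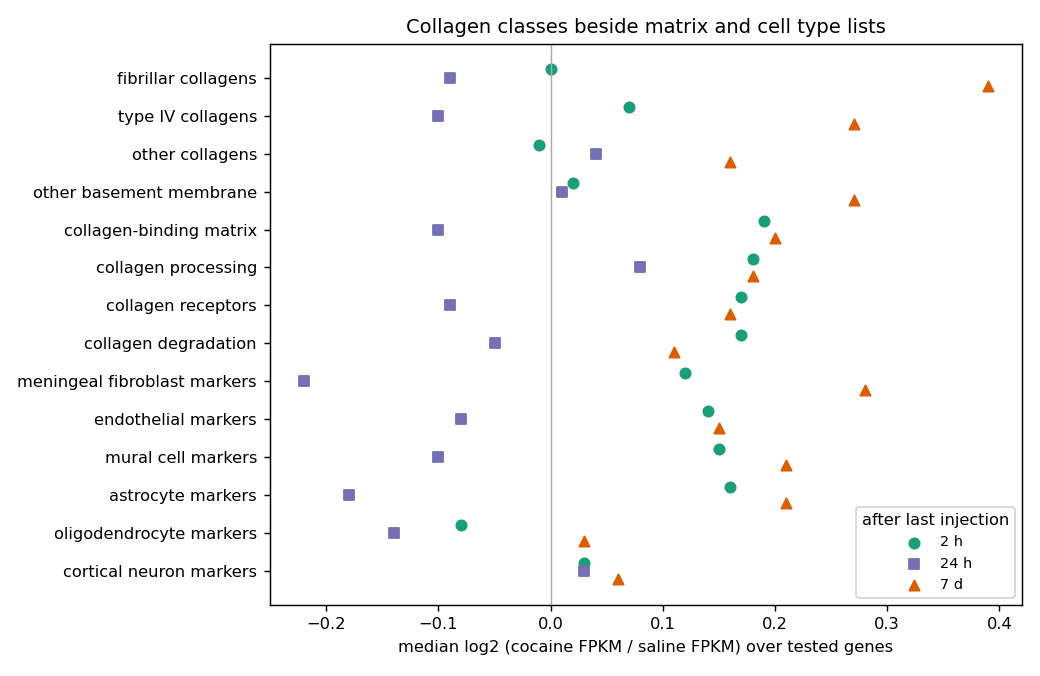
Median log2 ratio of cocaine to saline of the collagen classes, the accompanying matrix lists and the marker lists of cell types other than choroid plexus at 2 h, 24 h and 7 d; each point is the median over the tested genes of 1 list. The fibrillar, type IV, other basement membrane, meningeal fibroblast, mural and astrocyte lists all lie below or near 0 at 24 h and above 0 at 7 d. The meningeal fibroblast and collagen-binding matrix lists share Dcn, Lum, Ogn, Fmod and Aspn. No median shown is corrected for transcript length.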

How the data were processed

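RNA of the prefrontal cortex was sequenced as poly(A)-selected libraries without strand marks. Per the labels, the authors trimmed reads with Trimmomatic 0.32, aligned them with TopHat2 2.0.12 and ran Cufflinks 2.2.1 and Cuffdiff; only uniquely mapped reads were kept. The authors deposited 1 table per time point with a pooled FPKM for saline and for cocaine, a status, and their own log2 fold change, test statistic, p value, q value and verdict, which were not used here. The column headings name the time and, for the first of the pair, the letter C, but not the agent. The first was taken as saline and the second as cocaine, as the rule that selected the collagen rows states and by the FPKM headings of the study's supplementary tables. The direction of every ratio rests on this. Positions are 1-based on GRCm38, which all 43 collagen loci overlap (18 of 42 do in NCBIM37); the study's methods name mm9. Because the values are pooled, no SD or test can be given, and the tables hold no fragment count behind a value.

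Ratios were computed in Python 3.11.15 with pandas 2.3.3 and numpy 2.4.6, and plotted with matplotlib 3.10.9, for loci of status OK with both values above 0, with no pseudocount. Transcript length, the longest annotated transcript of the same symbol, covered 84.3% (2 h), 83.1% (24 h) and 83.2% (7 d) of tested genes and 42 of 43 collagens (not Col26a1). The calling and length steps were run on simulated data with planted 2-fold changes and little noise, as a check of the computation only. The simulation did not model the counting error of scarce genes or the spread between libraries. Col20a1 stands only on a locus merged with Arfgap1 and is outside the rule. The members, classes, gene lists and marker lists were chosen with earlier results of these data known. The text names every collagen tested at any time point, members of the other matrix lists past 1.3-fold whose mean FPKM reached 1, and the 2 highest of each list; untested collagens and scarcer list members were named after their values were seen. The alternatives tried were pseudocounts, a minimum mean FPKM, any status, other folds, a length correction, centring and another choice among loci of the same name.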

Additional observations from a re-analysis of the deposited data

Results flagged for a closer look

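Of the tested collagens, 3 passed 1.3-fold in opposite directions at different time points, which drew attention to them. The share of all genes that did so was not computed, so the count cannot be called high or low. Col6a3 had log2 ratios of cocaine to saline of -0.82 (2 h), 0.68 (24 h) and 0.79 (7 d). Col3a1 had -0.60 at 2 h and 0.57 at 7 d. Col26a1 had -0.42 at 2 h and 0.53 at 24 h. The differences between time points were not tested, because each value is pooled over the libraries of its group. All 3 genes were scarce, with pooled values between 0.271 and 1.68 FPKM. Each group has 2 libraries and 1 pooled value, so no search for a sample far from the others could be made.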

How the results depend on the processing

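No paired analysis was possible because each deposited value pools the 2 libraries of a group, and for the same reason leaving out a replicate could not be run. Of 117 recomputed counts and medians, 84 stayed within 1.5 times of the count or 0.1 of the median. With a pseudocount of 1, the counts were 0 at every time point and in each direction, and with a pseudocount of 0.1 the count of 1 lower at 7 d became 0. With a mean FPKM of at least 1, 0 were lower at 2 h, 1 was higher and 0 lower at 24 h, and 3 were higher and 0 lower at 7 d; the fibrillar median at 2 h became 0.14. With loci of any status, 4 were higher and 9 lower at 2 h, 8 higher and 8 lower at 24 h, and 10 higher and 7 lower at 7 d. The medians at 2 h were then 0.14 for fibrillar, -0.17 for basement membrane and -0.12 for other collagens, and that of the others at 7 d was -0.01. At 1.5-fold, 1 was higher and 1 lower at 24 h and 1 higher and 0 lower at 7 d; at 2-fold, all counts were 0. With the length correction, 3 were higher at 7 d and the basement membrane median was 0.14. The share of all loci past the fold was not recomputed under these settings. The counts under them therefore have no share to be read against. Of 122 recomputed ratios of single genes past the fold, 79 kept the call, 43 fell short of it and 0 reversed. Centring on the median of all loci and taking the locus with the highest mean changed no call. The tables hold no fragment counts, so the counting error of scarce genes was not measured.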
